A study of Mus musculus with 12 samples.

Results

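Hearts of busulfan-treated ICR mice given AOS-type FMT were compared with hearts of busulfan-treated mice given control-type FMT, over every gene measured. The members were chosen by the treatment label and by no measured value. They are 6 RNA-seq libraries of the 12 in the series, 3 labelled B+AOS10mg/kg-FMT (AOS-FMT from here on) and 3 labelled B+Con-FMT (control-FMT), and 13489 of the 17536 genes listed had enough counts to be tested. Every sample is heart tissue of the outbred ICR stock at 10 weeks of age. Both FMT groups carry busulfan, an alkylating chemotherapy drug, whose dose the labels do not give for them. The other groups, of 3 libraries each, are busulfan at 20 mg/kg and control. FMT commonly stands for faecal microbiota transplantation, the transfer of gut microbes from a donor, and AOS for alginate oligosaccharide, a short sugar chain from brown algae, but the labels spell out neither. Whether the AOS, at 10 mg/kg, went to the donors or to the recipients is not stated. The labels number the replicates without saying that they are separate animals, so p-values measure only the spread between these samples, which may be technical.

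Gut microbes act on distant organs through metabolites, endotoxin and hormones, and the heart answers such signals, like adrenaline and stress steroids, with rapid changes in transcription. Cyclic AMP, the messenger of adrenaline and glucagon, activates the transcription factor CREB, which switches on genes such as the salt-inducible kinase Sik1, the insulin receptor adaptor Irs2 and the NR4A orphan nuclear receptors. Immediate early genes, among them the AP-1 and NR4A families, are transcribed within minutes of a stimulus without new protein synthesis.

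The libraries held 11333600 to 14335700 estimated counts. Between 4.37% and 5.16% of the counts in the 6 FMT libraries came from Myh6, the main cardiac myosin. Transcripts of the atria and of the liver moved with the groups. The atrial score, the mean log2 CPM (counts scaled to equal library size) of the atrial muscle genes Sln, Myl4, Myl7 and Bmp10, was 6.57, 10.4 and 9.49 in AOS-FMT replicates 1 to 3, against 3.48, 0.816 and 6.26 in control-FMT. The liver score, the mean log2 CPM of 29 liver markers, was 1.80, 1.98 and 4.66 in AOS-FMT and 1.68, -0.19 and 0.739 in control-FMT. On both scores the 3 AOS-FMT libraries lay above the 3 control-FMT libraries. The differences, 5.30 for the atrial and 2.07 for the liver score, each had a two-sided exact permutation p of 0.1, the smallest that 3 against 3 libraries can give. The liver difference was 1.14 without AOS-FMT replicate 3. In bulk samples, more cells of a type and more RNA per cell cannot be told apart.

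**Figure D1:**
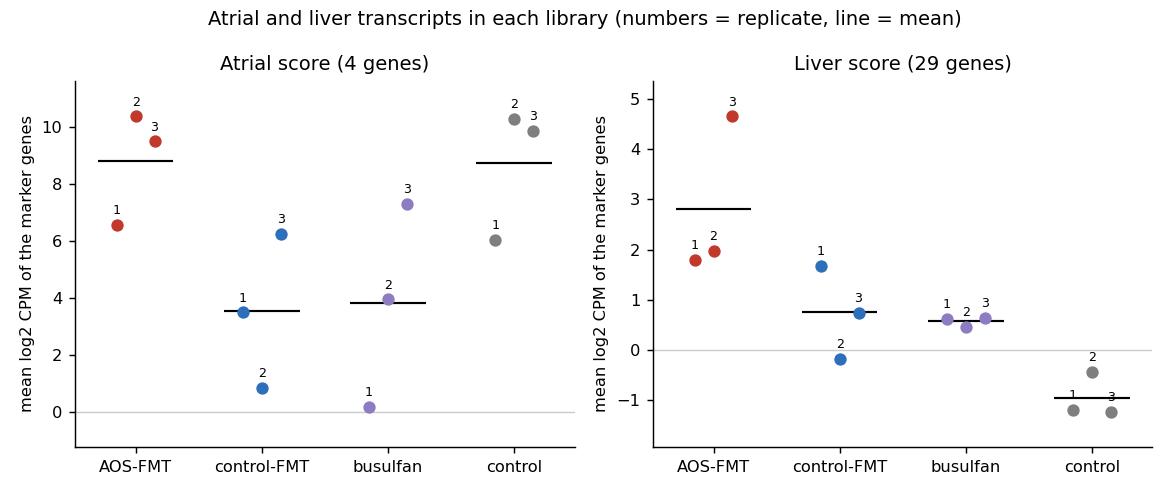
Atrial score (left panel, mean log2 CPM of 4 genes) and liver score (right panel, mean log2 CPM of 29 genes) in each library, with the 4 groups on the horizontal axis, the replicate number above each point and the group mean as a line. AOS-FMT libraries sit above control-FMT libraries in both panels, and AOS-FMT replicate 3 has the highest liver score at 4.66.

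Fosl2, Irs2, Sik1 and Gvin1 rose in AOS-FMT hearts relative to control-FMT hearts by edgeR's quasi-likelihood test, and 0 genes fell. These 4 of 13489 genes (0.0297%) passed in a fit of all 12 libraries, with p-values adjusted by Benjamini-Hochberg over every gene tested and 0.05 as the limit. Fosl2, a subunit of the AP-1 transcription factor, had 54.9, 50.7 and 72.9 CPM in AOS-FMT, against 24.9, 22.2 and 22.3 CPM in control-FMT. Its log2 fold change, AOS-FMT over control-FMT, was 1.36 ± 0.16 (SE, n = 3 each, edgeR adjusted p = 0.0154). Irs2, an adaptor that carries the insulin signal inside the cell, had 73.5, 49.6 and 100.4 CPM in AOS-FMT, against 16.1, 14.0 and 16.0 CPM in control-FMT. The lowest AOS-FMT library was thus above every control-FMT library for both genes. Irs2 rose by 2.27 ± 0.28 (edgeR adjusted p = 0.0246). Sik1, a salt-inducible kinase that restrains the CREB pathway and is itself a CREB target, had 106, 96.6 and 138 CPM in AOS-FMT, against 31.7, 32.8 and 50.8 CPM in control-FMT. It rose by 1.56 ± 0.21 (edgeR adjusted p = 0.0326), again with no overlap between the groups. Gvin1, an interferon-inducible giant GTPase, had 11.5, 9.94 and 14.99 CPM in AOS-FMT, against 3.84, 4.58 and 4.49 CPM in control-FMT. It rose by 1.49 ± 0.22, just inside the threshold (edgeR adjusted p = 0.04998), and its count is uncertain because near-identical gene copies lie beside it. All 4 are protein-coding, and in GRCm38.p6 they span chr5:32136472-32157840 (Fosl2, NCBI gene 14284), chr8:10984681-11008929 (Irs2, 384783), chr17:31844248-31855804 (Sik1, 17691) and chr7:106156535-106215340 (Gvin1, 74558).

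Busulfan and control hearts stood near control-FMT hearts for 3 of these genes. In busulfan hearts Irs2 had 13.8, 16.5 and 18.5 CPM and in control hearts 13.7, 24.7 and 13.5 CPM, of which the highest, 24.7 CPM, lay under every AOS-FMT library. Fosl2 had 21.9 to 26.6 CPM in busulfan and 21.4 to 31.5 CPM in control, and Sik1 had 32.4 to 48.1 CPM in busulfan and 34.2 to 45.7 CPM in control. Gvin1 differed from these, with 6.34 to 7.66 CPM in busulfan and 2.93 to 5.24 CPM in control. Each of the 4 genes had its 3 AOS-FMT libraries above all 9 other libraries, which held for 126 of the 13489 genes (0.934%).

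**Figure D2:**
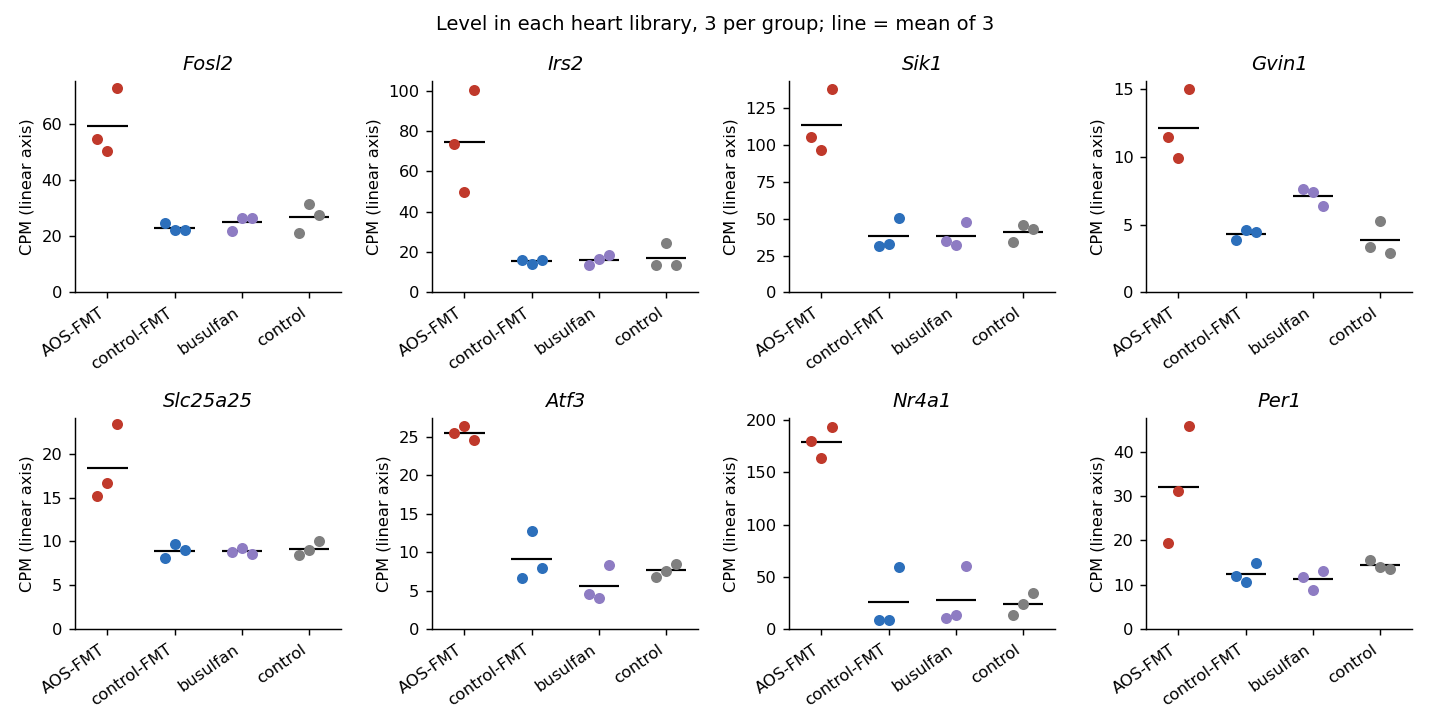
CPM of 8 genes in each of the 12 libraries (linear axes from 0), with groups on the horizontal axis, 1 point per library and the mean of 3 as a line. The points of AOS-FMT stand above those of control-FMT in every panel, for example 49.6 to 100.4 CPM against 14.0 to 16.1 CPM for Irs2, and Nr4a1 shows 1 high library in control-FMT and 1 in busulfan.

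With the atrial score as a covariate over the 12 libraries, the log2 fold changes were 1.14 for Fosl2, 2.01 for Irs2, 1.18 for Sik1 and 1.52 for Gvin1, and with the liver score 1.01, 1.70, 1.26 and 1.17. None of the 4 was then called (edgeR adjusted p of 0.445 to 0.459 with the atrial and 0.489 to 0.974 with the liver score). Both scores differ between the groups, and the part of either tissue in the result was not tested.

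The libraries in the fit decided how many genes were called. With only the 6 FMT libraries edgeR called 0 genes, and 993 had an unadjusted p under 0.05. Over the 12 fits that each left out 1 library, Fosl2 was called in 9, Irs2 in 6, Sik1 in 4 and Gvin1 in 1. edgeR called 0 genes without control-FMT replicate 1 or 2, where 596 and 550 genes had an unadjusted p under 0.05, 1 without busulfan replicate 1 or 2, and 2 without AOS-FMT replicate 1 or 3, control-FMT replicate 3 or control replicate 3. The fold changes themselves moved less, between 1.19 and 1.47 for Fosl2, 1.99 and 2.50 for Irs2, 1.40 and 1.81 for Sik1 and 1.31 and 1.62 for Gvin1. DESeq2 called 32 genes on the same counts, 26 higher and 6 lower. The higher ones include these 4 and Atf3, Bmp10, Ccl6, Cebpd, Dnajb1, Errfi1, Fgb, Hpx, Hsp90aa1, Hspa1b, Il1b, Nr4a2, Nr4a3, Pde4b, Per1, Slc25a25 and Tsc22d3, and the lower ones are Bhlhe41, Coq2, Irx3, Mapre3, Rasl11b and Tmem171. limma-voom called 4, which were Fosl2, Irs2, Sik1 and Atf3. In what follows a call is edgeR's unless another tool is named.

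Besides 3 of these calls, the cyclic AMP pathway held further genes with separate groups. In a list of 22 CREB targets and salt-inducible kinases, all measured, 3 were called higher (Fosl2, Irs2 and Sik1). Counting these, 10 had an unadjusted edgeR p under 0.05, all 10 higher. The list shares members, among them Fosl2 and Nr4a1, with the immediate early genes below, so the 2 lists are not independent. Like all 50 gene lists here, both were chosen with earlier results of these data known. Their counts beside those of all genes are therefore a description and not a test. Over all genes tested 840 (6.23%) had such a p, 523 (3.88%) of them higher and 317 (2.35%) lower, the background for the lists below. The groups did not overlap for 10 members that were higher and 1 that was lower, where 6.52% of all genes were higher and 7.29% lower without overlap. The list's median log2 fold change was 0.32, against 0.00 over all genes, and 0.18 without AOS-FMT replicate 2. With the atrial score as covariate it was 0.15. Slc25a25, a mitochondrial ATP carrier, had 15.2, 16.7 and 23.3 CPM in AOS-FMT, against 8.07, 9.66 and 9.06 CPM in control-FMT, at 1.04 ± 0.16 just outside the threshold (edgeR adjusted p = 0.0594). Pde4b, a phosphodiesterase that breaks down cyclic AMP, had 51.2, 63.6 and 57.5 CPM in AOS-FMT, against 43.1, 39.2 and 41.7 CPM in control-FMT, and its groups were likewise separate at 0.48 ± 0.11 (edgeR adjusted p = 0.508). The sister kinase gene Sik3 stood at -0.18 ± 0.12 (edgeR adjusted p = 0.802), with 70.1 to 76.4 CPM in AOS-FMT and 81.5 to 85.1 CPM in control-FMT. Irs2 was the called member of the list of insulin and IGF signalling, where 2 of 27 measured members had an unadjusted p under 0.05 and the median was 0.04.

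The immediate early genes stood higher as a list. Of 37 listed, 33 were measured and 1 was called (Fosl2). At an unadjusted p under 0.05, 14 were higher and 1 lower, beside 3.88% and 2.35% of all genes, and 25 lay above 0. The median was 0.51 and stayed between 0.45 and 0.72 when any 1 library was left out, but it was 0.10 with the atrial score as covariate. In 8 of the 33 members (24.2%) the 3 AOS-FMT libraries lay above all 9 other libraries, beside 0.934% of all genes. Atf3, a stress-induced transcription factor of the ATF/CREB family, had 25.4, 26.3 and 24.6 CPM in AOS-FMT, against 6.58, 12.7 and 7.94 CPM in control-FMT (1.49 ± 0.25, edgeR adjusted p = 0.137). The 3 NR4A genes, nuclear receptors that are controlled mainly by how much is made, all had separate groups. Nr4a1 had 180, 164 and 193 CPM in AOS-FMT, against 8.78, 9.16 and 59.0 CPM in control-FMT. Nr4a2 had 6.62, 6.20 and 6.51 CPM in AOS-FMT, against 0.549, 1.15 and 2.16 CPM in control-FMT, and Nr4a3 had 9.64, 10.1 and 26.8 CPM, against 2.35, 2.70 and 2.33 CPM. Their log2 fold changes were 2.81 ± 0.90, 2.33 ± 0.45 and 2.65 ± 0.47, and none was called by edgeR (adjusted p of 0.752, 0.197 and 0.195), whereas DESeq2 called Nr4a2 and Nr4a3. The AP-1 gene Fosb stood at 2.16 ± 0.55 and Jun at 0.60 ± 0.17 (edgeR adjusted p of 0.638 and 0.706). Plk2, a polo-like kinase, was the member that was lower at an unadjusted p under 0.05, at -0.40 ± 0.17 (edgeR adjusted p = 0.792).

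Promoter sequences of the NR4A genes are shown because all 3 had separate groups, with 1 of the 3 RefSeq promoters of Slc25a25. That one holds a full cyclic AMP response element (CRE), as did 3.36% of all tested genes with a promoter sequence. The windows of the other 2 starts held neither the element nor its core. Each is the 250 bases before a RefSeq start in GRCm38.p6, written 5′ to 3′ on the gene's own strand, and capitals mark the CRE core TGACG on either strand. The full CRE is TGACGTCA, which holds the core on both strands. Nr4a1 is at chr15:101266596-101266845 on the plus strand, Nr4a2 at chr2:57124004-57124253 on the minus strand, Nr4a3 at chr4:48045055-48045304 on the plus strand and Slc25a25 at chr2:32424067-32424316 on the minus strand.
Nr4a1: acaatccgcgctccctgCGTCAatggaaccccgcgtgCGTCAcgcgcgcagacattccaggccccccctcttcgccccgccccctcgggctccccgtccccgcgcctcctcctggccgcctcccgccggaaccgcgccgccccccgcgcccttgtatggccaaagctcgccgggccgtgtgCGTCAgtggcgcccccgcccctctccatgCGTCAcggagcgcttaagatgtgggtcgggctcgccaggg
Nr4a2: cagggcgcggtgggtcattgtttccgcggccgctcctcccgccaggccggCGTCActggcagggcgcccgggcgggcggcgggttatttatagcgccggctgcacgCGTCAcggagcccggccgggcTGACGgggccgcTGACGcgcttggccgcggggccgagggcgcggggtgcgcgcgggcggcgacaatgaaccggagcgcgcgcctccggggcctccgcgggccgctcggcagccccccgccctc
Nr4a3: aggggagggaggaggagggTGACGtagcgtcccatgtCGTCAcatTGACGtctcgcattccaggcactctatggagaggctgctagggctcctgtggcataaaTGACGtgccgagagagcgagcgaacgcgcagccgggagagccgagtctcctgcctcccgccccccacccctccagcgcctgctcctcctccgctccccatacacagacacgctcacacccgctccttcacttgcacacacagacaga
Slc25a25: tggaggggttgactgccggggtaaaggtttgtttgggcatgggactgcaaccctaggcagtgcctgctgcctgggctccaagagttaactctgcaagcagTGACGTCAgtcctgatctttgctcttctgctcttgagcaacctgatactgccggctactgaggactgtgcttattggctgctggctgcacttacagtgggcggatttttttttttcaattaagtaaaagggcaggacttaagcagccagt

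Each NR4A window held 4 CRE cores, counted over 250 bases before and 50 after the start on both strands, and 0.549% of the 10738 tested genes with a window held at least 4. At least 1 core lay in the windows of 19 of 26 immediate early genes (73.1%), 9 of 17 genes of the CREB list (52.9%), 115 of the 393 genes higher at an unadjusted p under 0.05 that had a window (29.3%) and 34.1% of all 10738 genes. The windows of Fosl2 and Irs2 held no core, and the Irs2 window held 1 E-box, CACGTG, which 11.5% of genes held. No window was available for the other called genes, Sik1 and Gvin1, so they were not searched. The full CRE was in 4 of 26 immediate early genes (15.4%) and 1 of 17 genes of the CREB list (5.88%). It was in 11 of the 393 genes higher at that p (2.8%) and in 3.36% of all. The AP-1 site TGAGTCA was in 5.85% of the windows of genes higher at that p, in 0 of the 26 immediate early windows and in 4.62% of all. A match of letters is a description of the window and not a binding site.

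Genes that glucocorticoids induce, the stress steroids of the adrenal gland, stood higher as well, and share Per1 with the CREB list and Dusp1 with the immediate early genes. Of 25 measured, 8 were higher and 1 lower at an unadjusted p under 0.05, 20 lay above 0 and the median was 0.34, or 0.11 with the atrial score as covariate. Per1, a clock gene that CREB and glucocorticoids both induce, had 19.4, 31.0 and 45.8 CPM in AOS-FMT, against 11.9, 10.6 and 14.9 CPM in control-FMT (1.36 ± 0.26, edgeR adjusted p = 0.197). Tsc22d3, the glucocorticoid-induced leucine zipper, had 89.5, 101 and 141 CPM in AOS-FMT, against 70.9, 68.5 and 63.2 CPM in control-FMT. Control hearts had 85.5 to 93.6 CPM of Tsc22d3, above control-FMT but overlapping AOS-FMT replicate 1. The log2 fold change of Tsc22d3 was 0.71 ± 0.14 (edgeR adjusted p = 0.197). Errfi1, a feedback inhibitor of the EGF receptor, stood at 0.95 ± 0.18 (adjusted p = 0.195), the transcription factor Cebpd at 1.05 ± 0.25 (0.546), the kinase Sgk1 at 0.55 ± 0.15 (0.706) and the NF-kB inhibitor Nfkbia at 0.35 ± 0.13 (0.752), each with separate groups. The other clock genes did not follow Per1. Of 19 measured clock genes 1 was higher and 1 lower at an unadjusted p under 0.05, and the median was 0.01. The lower one was Bhlhe41, a clock repressor, with 18.7, 20.8 and 20.8 CPM in AOS-FMT and 25.8, 27.2 and 33.0 CPM in control-FMT (-0.51 ± 0.11, edgeR adjusted p = 0.387), while Arntl, the clock activator, stood at 0.24 ± 0.14 (0.797).

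Heat shock genes gave a mixed picture. Of 20 measured chaperones, 4 were higher and 0 lower at an unadjusted p under 0.05, and the median was -0.02. The inducible Hsp70 gene Hspa1b had 13.6, 81.6 and 135 CPM in AOS-FMT, against 9.56, 5.81 and 12.2 CPM in control-FMT, so that AOS-FMT replicate 1 was close to control-FMT. Its log2 fold change was 3.07 ± 0.81 (edgeR adjusted p = 0.706), and its near-identical neighbour Hspa1a, which can share reads with it, stood at 3.17 ± 0.86 (0.706). Dnajb1, an Hsp70 partner, stood at 0.90 ± 0.21 (0.508) and Hsp90aa1 at 0.41 ± 0.10 (0.638), whereas the constitutive Hspa8 stood at 0.12 ± 0.14 (0.883).

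**Figure D3:**
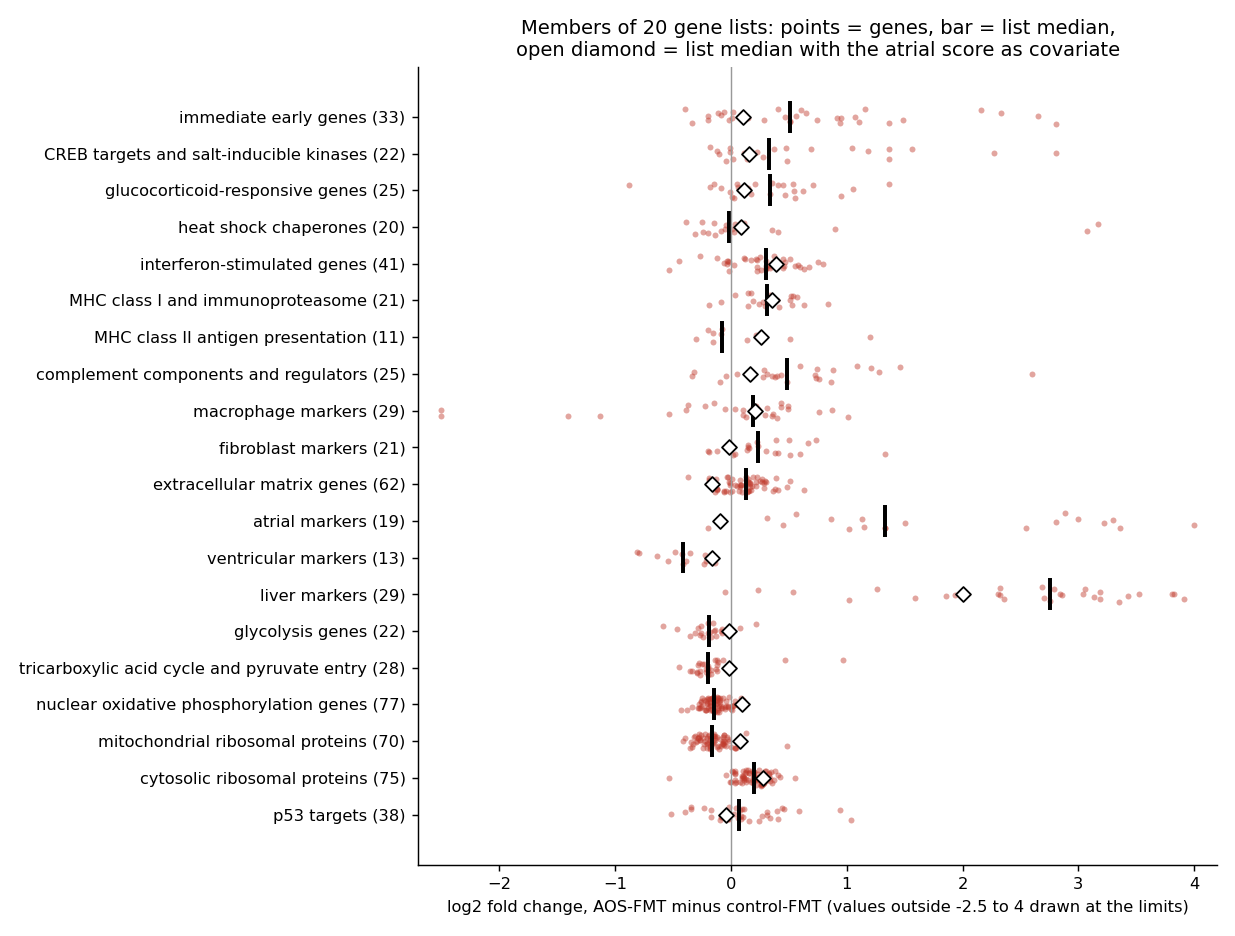
Log2 fold change of AOS-FMT minus control-FMT (horizontal axis) for the measured members of 20 gene lists (rows, number of genes in brackets), with 1 point per gene, a bar at the list median and an open diamond at the median with the atrial score as covariate. The immediate early genes have a median of 0.51 and a diamond at 0.10, the interferon-stimulated genes 0.30 and 0.39, and the nuclear oxidative phosphorylation genes -0.14 and 0.10.

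edgeR called no gene lower, against 317 lower at an unadjusted p under 0.05, and DESeq2 called 6. The genes with the smallest p on that side were of moderate size. Rasl11b, a small GTPase of the Ras family, had 25.2, 19.8 and 19.4 CPM in AOS-FMT, against 40.0, 41.6 and 31.2 CPM in control-FMT (-0.81 ± 0.17, edgeR adjusted p = 0.261). Tmem171, a membrane protein, had 7.63, 7.36 and 8.92 CPM in AOS-FMT, against 15.5, 14.8 and 15.2 CPM in control-FMT (-0.93 ± 0.19, adjusted p = 0.292), and it was the gene called lower without control replicate 1. Polrmt, the RNA polymerase of mitochondria, stood at -0.40 ± 0.10 (adjusted p = 0.546), Coq2, an enzyme of coenzyme Q synthesis, at -0.49 ± 0.12 (0.548) and Mapre3, a microtubule-end protein, at -0.34 ± 0.08 (0.544). The pacemaker channel gene Hcn2 had 77.2, 68.9 and 123 CPM in AOS-FMT, against 157, 189 and 136 CPM in control-FMT (-0.84 ± 0.22, adjusted p = 0.706). The groups did not overlap in any of these 6 genes, but they were picked by small p in the same libraries. Over all genes 7.29% were lower without overlap. Of the 6, DESeq2 called Rasl11b, Tmem171, Mapre3 and Coq2.

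Atrial and ventricular genes stood on opposite sides. All 19 atrial markers were measured, 18 lay above 0 and 5 were higher at an unadjusted p under 0.05. edgeR called 0 of them and DESeq2 called Bmp10, a growth factor of atrial muscle. The list's median was 1.33, or 0.76 without AOS-FMT replicate 2. Their summed level was 3609 to 33490 CPM in AOS-FMT and 1854 to 6225 CPM in control-FMT, with 0 markers absent. Sln, which encodes sarcolipin, an inhibitor of the calcium pump, had 165, 1299 and 819 CPM in AOS-FMT, against 21.1, 0.900 and 224 CPM in control-FMT, which overlap (3.22 ± 1.85, edgeR adjusted p = 0.797). Nppa, the atrial natriuretic peptide, had 952, 17507 and 7305 CPM in AOS-FMT, against 458, 401 and 2821 CPM in control-FMT (2.81 ± 1.36, 0.797), in the order of the atrial scores of the 3 AOS-FMT libraries. Nppb, the natriuretic peptide used as a marker of heart strain, had 204, 417 and 384 CPM in AOS-FMT, against 213, 183 and 204 CPM in control-FMT (0.75 ± 0.27, 0.759). The 13 ventricular markers were all below 0, with a median of -0.42 and 4 lower at an unadjusted p under 0.05. Without AOS-FMT replicate 2 the median was -0.21, with 1 marker above 0 and 2 lower at that p. Irx4, Irx5 and Irx3 are patterning factors of ventricular muscle and its conduction fibres. They stood at -0.64 ± 0.23, -0.79 ± 0.22 and -1.03 ± 0.27 (edgeR adjusted p of 0.763, 0.706 and 0.706), with separate groups. Myl3, a ventricular myosin light chain, had 7222, 3644 and 5253 CPM in AOS-FMT, against 8280, 7919 and 7348 CPM in control-FMT. With the atrial score as covariate the medians were -0.10 for atrial and -0.16 for ventricular markers. The genes of that score are themselves members of the atrial list, so the fall of the atrial median is partly built in. How much of each heart's atria entered a sample is not given in the sources used here, and its part in the result was not tested.

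Liver transcripts were higher in AOS-FMT, most of all in replicate 3. Of 29 measured liver markers 28 lay above 0 and 22 were higher at an unadjusted p under 0.05. edgeR called 0 and DESeq2 called Fgb and Hpx among them, and the median was 2.75, or 0.90 without AOS-FMT replicate 3. The summed level was 191 to 1270 CPM in AOS-FMT and 101 to 178 CPM in control-FMT, and 0 of the 31 markers in the table were at 0 in all 6 libraries. Alb, serum albumin, had 26.5, 28.3 and 302 CPM in AOS-FMT, against 23.8, 6.55 and 8.80 CPM in control-FMT (3.18 ± 1.01, edgeR adjusted p = 0.752). Fgb, a fibrinogen chain, stood at 3.52 ± 0.96 (0.706) and the haem carrier Hpx at 3.35 ± 0.81 (0.596). Of 18 measured acute-phase genes, many of them liver genes, 9 were higher and 2 lower at an unadjusted p under 0.05, with a median of 0.80 that was 0.18 with the liver and 0.25 with the atrial score as covariate, and 1.43 without control-FMT replicate 3. The list shares members with the liver score, among them Fgb, Fgg and Hpx, so the fall with that score is partly built in. Haptoglobin, Hp, had 5.79, 12.5 and 11.8 CPM in AOS-FMT, against 3.21, 4.01 and 7.16 CPM in control-FMT, which overlap (1.07 ± 0.33, adjusted p = 0.734).

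Interferon-induced genes, the company of Gvin1, stood modestly higher in AOS-FMT than in control-FMT, but not than in control hearts. All 41 interferon-stimulated genes in the table were measured and 31 lay above 0. At an unadjusted p under 0.05, 7 were higher and 0 lower, beside 3.88% and 2.35% of all genes. Where 6.52% of all genes were higher without overlap, 13 members had separate groups, all higher. The median was 0.30, or 0.20 without AOS-FMT replicate 1, and unlike that of the immediate early genes it was no smaller with either covariate (0.39 with each). Against control hearts the list median was -0.01 for AOS-FMT and -0.26 for control-FMT, and against busulfan hearts 0.12 and -0.13. In 0 of the 41 members did the 3 AOS-FMT libraries lie above all 9 other libraries, beside 0.934% of all genes. Iigp1, an interferon-induced GTPase of defence against intracellular parasites, had 112, 97.1 and 79.0 CPM in AOS-FMT, against 63.8, 58.4 and 58.4 CPM in control-FMT (0.67 ± 0.23, edgeR adjusted p = 0.752). Igtp had 55.3, 55.7 and 44.0 CPM in AOS-FMT, against 33.9, 35.5 and 33.0 CPM in control-FMT (0.60 ± 0.20, 0.752), and its relative Irgm1 stood at 0.46 ± 0.15 (0.735). Gbp2, a guanylate-binding protein, stood at 0.55 ± 0.15 (0.706) and Ifi204, a DNA sensor, at 0.80 ± 0.22 (0.706). The groups were separate for each of these 5 genes. The interferon-induced chemokine Cxcl10 had 3.19, 1.87 and 1.54 CPM in AOS-FMT, against 0.784, 0.818 and 0.259 CPM in control-FMT (1.79 ± 0.53, 0.706). Of 21 genes of MHC class I presentation and the immunoproteasome 19 lay above 0 and 5 were higher at an unadjusted p under 0.05, with a median of 0.31, or 0.20 without AOS-FMT replicate 2 and 0.49 without AOS-FMT replicate 3, and 0.65 with the liver score as covariate. The immunoproteasome subunits Psmb8 and Psmb9 stood at 0.57 ± 0.20 and 0.63 ± 0.22 (0.752 for both). For the 11 measured MHC class II genes the median was -0.08, and it ran between -0.21 without control-FMT replicate 3 and 0.45 without control-FMT replicate 2. It was 0.05 without AOS-FMT replicate 3, 0.26 with the atrial and 0.49 with the liver score as covariate, and 0 of them had an unadjusted p under 0.05. H2-Aa, an MHC class II chain, had 118, 179 and 130 CPM in AOS-FMT, against 110, 166 and 92.7 CPM in control-FMT.

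Counts of macrophage markers rested on control-FMT replicate 2. Of 29 measured, 5 were higher and 3 lower at an unadjusted p under 0.05, and 8 were higher and 0 lower without that library. Their median was 0.19, or 0.44 with the liver score as covariate, or 0.08 without AOS-FMT replicate 2, 0.04 without control-FMT replicate 1 and 0.35 without control-FMT replicate 2. Folr2 and Lyve1, markers of macrophages resident in the heart, were higher with separate groups, at 0.76 ± 0.22 and 0.87 ± 0.32 (edgeR adjusted p of 0.706 and 0.763). Spp1, Gpnmb and Trem2, which mark lipid-laden and scar-associated macrophages, were the 3 lower members, and control-FMT replicate 2 held far more of each than any other FMT library. Spp1 had 1.09, 1.68 and 1.61 CPM in AOS-FMT, against 1.65, 222 and 1.29 CPM in control-FMT. Gpnmb had 2.10, 4.71 and 2.27 CPM in AOS-FMT, against 1.41, 242 and 3.19 CPM in control-FMT, and Trem2 4.53, 6.07 and 5.996 CPM, against 6.66, 21.4 and 8.46 CPM. The other control-FMT libraries were thus near the AOS-FMT level. The chemokine Ccl6 had 32.7, 41.3 and 26.3 CPM in AOS-FMT, against 19.4, 19.2 and 17.1 CPM in control-FMT (0.85 ± 0.16, edgeR adjusted p = 0.197).

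Inflammatory cytokines showed no common direction. Of 31 measured genes of the list of cytokines and NF-kB feedback, 5 were higher and 2 lower at an unadjusted p under 0.05, with a median of 0.14, or 0.26, 0.29 and 0.28 without AOS-FMT replicate 1, AOS-FMT replicate 3 and control-FMT replicate 3, and 0.01 with the atrial score as covariate. Il1b, which encodes interleukin-1 beta, had 1.68, 5.03 and 4.46 CPM in AOS-FMT, against 0.314, 0.818 and 0.345 CPM in control-FMT (2.90 ± 0.57, edgeR adjusted p = 0.197). Tnf, which encodes tumour necrosis factor, lay on the other side, with 0.503, 0.710 and 0.292 CPM in AOS-FMT, against 1.10, 1.55 and 1.90 CPM in control-FMT (-1.56 ± 0.55, adjusted p = 0.752). Both are low in whole heart. edgeR called neither, and DESeq2 called Il1b higher. Of 25 genes of Toll-like receptor and endotoxin sensing 3 were higher and 0 lower at an unadjusted p under 0.05, with a median of 0.07. Among receptors and enzymes for bacterial metabolites, tryptophan and bile acids 12 of 25 listed genes were measured, 4 were higher and 0 lower at that p, and the median was 0.20, or 0.35 without control-FMT replicate 3. They include Fmo2, a flavin monooxygenase, with 62.6, 99.7 and 65.6 CPM in AOS-FMT, against 38.6, 38.6 and 47.4 CPM in control-FMT (0.87 ± 0.24, 0.706), and Nr1h3, the liver X receptor alpha, at 0.33 ± 0.11 (0.752).

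Complement genes stood higher mainly through AOS-FMT replicate 2, the library with the highest atrial score. Of 25 measured, 21 lay above 0, 8 were higher and 1 lower at an unadjusted p under 0.05, with a median of 0.48 that was 0.15 without that library and 0.16 with the atrial score as covariate. C3, the central complement protein, had 211, 448 and 182 CPM in AOS-FMT, against 187, 154 and 167 CPM in control-FMT, and Cfb, a factor of the alternative pathway, had 9.56, 25.0 and 10.7 CPM, against 6.11, 8.43 and 6.82 CPM. Fibroblast markers followed the same library. Of 21 measured, 18 lay above 0 and 6 were higher at that p, with a median of 0.23 that was 0.08 without AOS-FMT replicate 2, 0.37 without AOS-FMT replicate 1, 0.39 without AOS-FMT replicate 3 and -0.02 with the atrial score as covariate. Gsn, an actin-severing protein abundant in fibroblasts, had 2308, 4715 and 2808 CPM in AOS-FMT, against 2319, 1398 and 2177 CPM in control-FMT. The 17 mesothelial and epicardial markers had a median of 0.93 that was 0.06 without AOS-FMT replicate 2 and 1.49 without control-FMT replicate 3, and -1.17 with the atrial score as covariate, with 3 of 17 above 0. Their summed level was 780 CPM in that AOS-FMT library and 257 to 316 CPM in the other 5 FMT libraries.

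Of 62 measured extracellular matrix genes 3 were higher and 1 lower with separate groups, where 6.52% and 7.29% of all genes were. At an unadjusted p under 0.05, 2 of the 62 were higher and 0 lower, with a median of 0.13, or -0.07 without AOS-FMT replicate 2, 0.05 without control-FMT replicate 1 and 0.08 without control-FMT replicate 2. With the atrial score as covariate it was -0.17, with 7 of 62 above 0, against 44 without that covariate. The fibrillar collagen genes Col1a1 and Col3a1, read as signs of fibrosis, stood at -0.19 ± 0.29 and 0.16 ± 0.29 (edgeR adjusted p of 0.912 and 0.925). Col1a1 had 246, 470 and 230 CPM in AOS-FMT, against 287, 420 and 371 CPM in control-FMT. Lama2, the laminin chain around muscle fibres, had 188, 175 and 182 CPM in AOS-FMT, against 152, 147 and 154 CPM in control-FMT (0.27 ± 0.10, 0.752).

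Energy genes stood slightly lower, together with ventricular transcripts. Of 77 measured nuclear genes of oxidative phosphorylation 9 lay above 0 and 0 had an unadjusted p under 0.05, with a median of -0.14. Without overlap 15 were lower and 2 higher, beside 7.29% and 6.52% of all genes. The medians were -0.20 for 28 genes of the tricarboxylic acid cycle, -0.19 for 42 of fatty acid use and -0.19 for 22 of glycolysis, and 2, 7 and 2 of their members lay above 0. In these 3 lists 2, 0 and 4 members were lower and 0, 1 and 0 higher at an unadjusted p under 0.05, beside 2.35% and 3.88% of all genes. Without overlap 11, 1 and 7 were lower and 1, 1 and 0 higher. Without AOS-FMT replicate 2 the 4 medians were -0.06, -0.07, -0.06 and -0.11, and without AOS-FMT replicate 1 those of the tricarboxylic acid cycle and of fatty acid use were -0.31 and -0.28. With the atrial score as covariate they were 0.10, -0.02, 0.02 and -0.02. Idh2, the mitochondrial isocitrate dehydrogenase, had 1316, 1015 and 1243 CPM in AOS-FMT, against 1641, 1699 and 1542 CPM in control-FMT (-0.45 ± 0.15, edgeR adjusted p = 0.752). Gapdh, an enzyme of glycolysis, had 6363, 5305 and 6859 CPM in AOS-FMT, against 7863, 8100 and 7685 CPM in control-FMT (-0.35 ± 0.17, 0.797). Pdk4, which holds pyruvate back from the mitochondria and is induced by fasting, stood apart from its list, with 307, 371 and 337 CPM in AOS-FMT, against 251, 198 and 286 CPM in control-FMT (0.46 ± 0.22, 0.797). Protein synthesis genes divided by compartment. Of 70 mitochondrial ribosomal proteins 6 lay above 0, with a median of -0.17, and of 75 cytosolic ribosomal proteins 71 lay above 0, with a median of 0.20. Without overlap 21 of the mitochondrial ones were lower and 0 higher, and 9 of the cytosolic ones were higher and 0 lower. At an unadjusted p under 0.05, 2 mitochondrial members were lower and 1 higher, and 1 cytosolic member was higher. Without AOS-FMT replicate 2 the medians of the mitochondrial and cytosolic lists were -0.09 and 0.06, and with the atrial score as covariate 0.08 and 0.28. The contractile proteins had a median of -0.16 over 36 sarcomere genes (-0.08 without AOS-FMT replicate 2 and -0.25 without AOS-FMT replicate 1). Myh6 stood at -0.21 ± 0.18 and Myh7, its slow counterpart, at -0.42 ± 0.21 (adjusted p of 0.835 and 0.797).

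Shares of vessel markers stood near the background. Of 27 endothelial markers 2 were higher at an unadjusted p under 0.05 (7.41%), and of 18 markers of mural cells, which wrap vessels, 1 was lower (5.56%), beside 6.23% of all genes in either direction. Their medians were 0.07 and -0.10. Blood markers were thinly measured, and their medians depended on single libraries. The median of 16 erythroid markers was 0.50, or 0.07 without AOS-FMT replicate 2, 0.24 without control-FMT replicate 2 and 0.06 with the atrial score as covariate. For 8 platelet markers it was 0.47, or -0.14 without AOS-FMT replicate 2 and -0.61 with the atrial score as covariate. For 9 markers of T and NK cells it was 0.35 and ran between -0.09 without AOS-FMT replicate 2 and 1.05 without control-FMT replicate 2. The 6 B cell markers had a median of -0.29, which ran between -0.59 without control-FMT replicate 3 and 0.08 without control-FMT replicate 2. The 4 measured neutrophil markers had a median of 0.13, or -0.02 without AOS-FMT replicate 1 and -0.04 without control-FMT replicate 1. Proliferation genes, which drive DNA copying and division, stood higher in 32 of 36, with a median of 0.25 (0.11 without AOS-FMT replicate 2 and 0.13 without control-FMT replicate 2) and 2 at an unadjusted p under 0.05. For genes of the unfolded protein response, hypoxia, NRF2 and antioxidant defence, and atrophy and autophagy the medians were 0.09, -0.06, -0.06 and -0.03.

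Genes called in busulfan hearts were not called between the FMT groups. There edgeR called 0.0297% of all genes, so that 0 of 8 is near the share over all genes. In busulfan against control hearts, which share no library with the FMT comparison, edgeR called 8 genes higher (0.0593%), and 0 of these 8 were called between AOS-FMT and control-FMT by edgeR, DESeq2 or limma-voom. Of the 8, Cdkn1a (higher) and Pfkp (lower) had an unadjusted edgeR p under 0.05 there, as did 6.23% of all genes. Cdkn1a, a p53 target that blocks the cell cycle, had 75.4, 88.7 and 86.8 CPM in AOS-FMT and 63.3, 65.7 and 69.2 CPM in control-FMT, beside 65.0 to 80.2 CPM in busulfan and 31.3 to 42.7 CPM in control. AOS-FMT stood above control-FMT in every library, at 0.34 ± 0.13 (edgeR adjusted p = 0.759). Papln, a proteoglycan-like matrix protein, stood at -0.26 ± 0.13, the phosphofructokinase Pfkp at -0.29 ± 0.13 and Ccnd1, cyclin D1, at -0.16 ± 0.14 (adjusted p of 0.797, 0.792 and 0.834). Gdf15, a stress hormone and p53 target, had 4.53, 6.07 and 5.34 CPM in AOS-FMT, against 6.98, 7.04 and 8.89 CPM in control-FMT (-0.52 ± 0.26, 0.797). Of 38 measured p53 targets 2 were higher and 2 lower at an unadjusted p under 0.05, and the median was 0.07. Of 33 apoptosis regulators 4 were higher and 0 lower at that p, with a median of 0.04. Bmf, a promoter of cell death, had 10.98, 10.3 and 11.04 CPM in AOS-FMT, against 7.13, 7.69 and 8.80 CPM in control-FMT (0.45 ± 0.16, 0.752).

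Across all genes the FMT comparison ran against the busulfan comparison. Over 13489 genes the log2 fold changes of AOS-FMT minus control-FMT and of busulfan minus control had a Pearson correlation of -0.36 and a Spearman correlation of -0.34, and 63.2% of genes had opposite signs. The points are genes of the same 12 libraries and not independent replicates, so the value is a description. Of the 780 genes lower in busulfan at an unadjusted p under 0.05, 635 were above 0 in AOS-FMT minus control-FMT (median 0.27), and of the 747 higher in busulfan 551 were below 0 (median -0.10). The atrial score moved with both comparisons, at 0.174, 3.94 and 7.29 in busulfan and 6.04, 10.3 and 9.88 in control. The Pearson correlation depended on single libraries and was -0.06 without AOS-FMT replicate 2, -0.21 without control-FMT replicate 1, -0.22 without busulfan replicate 1 and -0.07 without control replicate 2. With the atrial score as covariate the Pearson correlation was -0.20 and the Spearman correlation -0.37, the medians of the 780 and 747 genes were 0.01 and -0.05, and the shared slope means that this value no longer comes from separate libraries. Without the atrial and liver marker genes the Pearson correlation was -0.41. The immediate early genes had a median of 0.02 in busulfan minus control, with 17 of 33 above 0, beside 0.51 in AOS-FMT minus control-FMT.

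**Figure D4:**
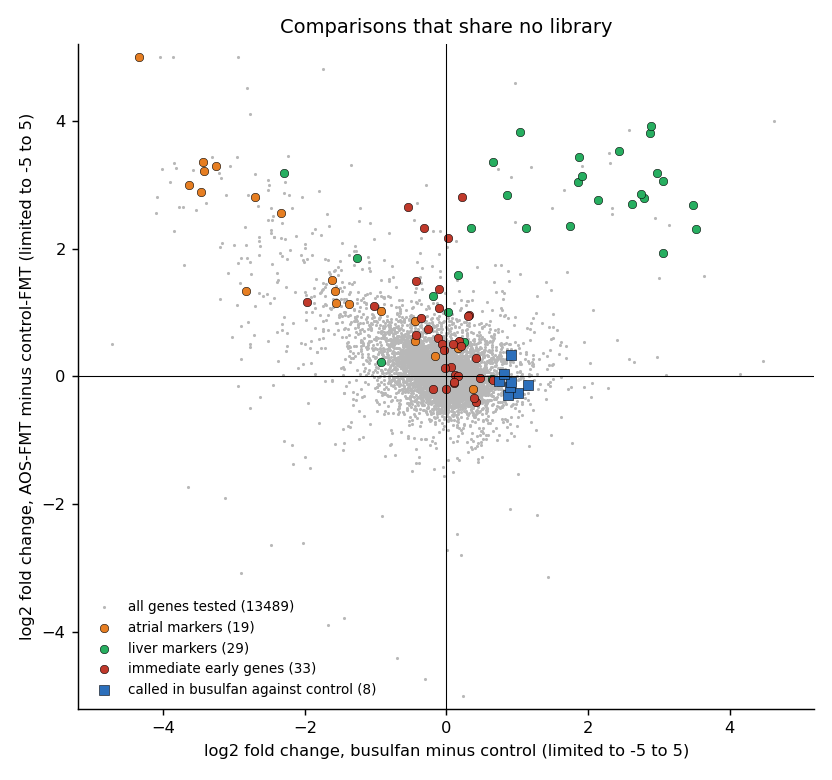
Log2 fold change of AOS-FMT minus control-FMT (vertical axis) against busulfan minus control (horizontal axis), both limited to -5 to 5, with 1 grey point for each of 13489 genes and coloured points for 19 atrial markers, 29 liver markers, 33 immediate early genes and the 8 genes called in busulfan against control. Most atrial markers lie at the upper left and most liver markers at the upper right, and the 8 called genes lie near 0 on the vertical axis, between -0.29 and 0.34.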

How the data were processed

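Gene counts of the 6 FMT libraries were compared in a fit over all 12 libraries of the series. The authors deposited estimated counts per gene and library, per the file headers; within a library 94.7% to 95.3% of them were whole. The same libraries were deposited as TPM and FPKM, per the file headers, and these entered no test, nor did the authors' group means. The submitters' processing notes name Bowtie 0.12.2 and mm10, and no source used here gives the counting tool, annotation or strand setting. Columns of other series numbered 0.

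Estimated counts were rounded, filtered with filterByExpr, scaled by TMM (factors 0.908 to 1.08) and fitted with edgeR 4.0.16 in R 4.3.3 (robust quasi-likelihood, group as the only term). The common coefficient of variation between libraries of a group, beyond counting noise, was 18.6%, and a log2 fold change had a median standard error of 0.163. Every adjusted p is from this fit, by Benjamini-Hochberg over 13489 genes, unless DESeq2 1.42.0 or limma-voom (limma 3.58.1) is named. CPM values are TMM-scaled. On simulated counts of AOS-FMT against control-FMT over 13382 genes, edgeR recovered 21.4%, 69.2% and 87.4% of 1.5-fold, 2-fold and 4-fold changes, with 7.31% of its calls false, and DESeq2 35.8%, 75.1% and 90.9%, with 15% false. Each gene was drawn independently around its mean over the 12 libraries. Variation shared between genes, such as that of atrial or liver transcripts, was not simulated, so these shares need not hold for the real libraries. Within each group, every pair of replicates differed beyond sampling noise, and pairs across groups were not checked for copies.

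Gene IDs matched GRCm38.p6, the assembly of mm10, for 17487 of 17536 genes, and promoter sequences are RefSeq's on that build. The 50 gene lists, the members and the naming rule were chosen with earlier results of these data known, and lists are described by counts and medians without a test. The rule named, per direction, the 15 genes of smallest p at 5 CPM or more, 6 members per list by p and 3 by level, the genes called in busulfan, and 25 heart, stress and cell markers. Among the genes of smallest p, predicted genes were skipped by their names, and no separate filter for pseudogenes was applied.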

Additional observations from a re-analysis of the deposited data

How the results depend on the processing

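Besides the counts of calls without single libraries given with the results, edgeR called 3 genes with DESeq2 size factors, 2 without scaling beyond library size, 5 without a filter on low counts, 5 among genes with a mean of at least 5 CPM, 3 without the robust fit and 0 with only the 6 FMT libraries or with the atrial score, the liver score or both as covariates, where 993, 473, 502 and 412 genes had an unadjusted p under 0.05. DESeq2 called 32, of which 26 were higher and 6 lower, and limma-voom 4. Leaving out 1 library in turn gave 0 to 4 calls, 0 to 4 of them higher and 0 to 1 lower. The cause of these differences was not tested. Whether replicate numbers pair the samples was not tested. The correlations of deviations from the group means between same-numbered AOS-FMT and control-FMT libraries were 0.109, -0.14 and -0.04. Over all pairs of groups they ran from -0.176 to 0.432 for same-numbered and from -0.427 to 0.325 for differently numbered libraries. With the replicate block 6 genes were called, among them Fosl2 and Sik1 but neither Irs2 nor Gvin1. With that block 1015 genes had an unadjusted p under 0.05, against 840 in the main fit. The atrial difference was 5.29 to 5.35 under other scalings and 3.94 to 6.66 without single libraries, and the liver difference 2.06 to 2.12 and 1.14 to 2.57. The correlation with the busulfan comparison was -0.088 without a filter on low counts, -0.48 at a mean of at least 5 CPM, -0.20 with the atrial score, -0.19 with the liver score and -0.045 with both as covariates, and -0.39 to -0.059 without single libraries. Of 80 genes with values in the text, 73 kept their direction under every alternative that gave them a value, 24 in all or, for genes with a mean below 5 CPM, 23. The other 7 were not called under any of them. Sln stood at -0.32 with the atrial score and -0.23 with both scores as covariates, Nppa at -0.34 and -0.095, Spp1 at 0.35 and 1.86, Col3a1 at -0.23 with the atrial score and -0.29 without AOS-FMT replicate 2 (up to 0.37 without other single libraries), Gpnmb at 1.12 with both scores and 0.41 without control-FMT replicate 2 (down to -5.31 without others), Nppb at -0.055 with both scores and Col1a1 at 0.16 with the liver score. Depth limits low genes such as Il1b, with 4 to 10 counts per control-FMT library, and Tnf, with 4 to 11 per AOS-FMT library, and 3 libraries per group left most 1.5-fold changes undetected in the simulation.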
